A study of Homo sapiens with 6 samples.

Results

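The genes described here are 9 sensors of RNA and their adaptors: DDX58 (which encodes RIG-I), IFIH1 (MDA5), DHX58 (LGP2), TLR3, MAVS, EIF2AK2 (PKR), ADAR, ZC3HAV1 (ZAP) and IRF3. They were chosen by name, from what their proteins are known to do, and not by their values. Earlier results of these data were known when the choice was made. All 9 were found among the 58735 genes of the expression table, and all 9 reached the mean level required for testing, a mean of 1 FPKM (fragments per kilobase of gene, scaled to the library total) over all libraries, which 13796 genes reached.

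Double-stranded RNA inside a cell is a sign of virus infection, and it is read by several proteins in parallel. RIG-I and MDA5 are helicases of the cytosol that bind such RNA and then signal through MAVS on the mitochondrial membrane, LGP2 is a relative that tunes them, and TLR3 reads double-stranded RNA in endosomes through the adaptor encoded by TICAM1. Both routes end on the kinases encoded by TBK1 and IKBKE, which phosphorylate IRF3 so that interferon genes are transcribed. PKR is a kinase that stops translation through eIF2 when it binds double-stranded RNA, ADAR edits adenosine to inosine and so makes self RNA less visible to the sensors, and ZAP binds CpG-rich RNA and targets it for decay. Most of these genes are also induced by interferon, through the interferon-stimulated response element (ISRE), whose letters are GAAA, any 2 bases, and GAAA again.

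The RNA came from HCT116SCs, the CD44+CD326+ fraction that was isolated with magnetic beads from the human colorectal cancer line HCT116 and grown as spheres in serum-free medium with EGF, bFGF and B27. One group of 3 libraries (NC) is labelled WT and received negative control siRNA, and the other of 3 libraries (siPSCA) is labelled PSCA knockdown and received siRNA against PSCA, a cell surface antigen of the Ly6 family. Both groups received short double-stranded RNA with a liposomal reagent and were harvested 48 h later, and cells that received no RNA were not analysed here. The comparison asks which transcripts differ between cells given PSCA siRNA and cells given control siRNA.

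The design has limits that hold for every value below. All libraries come from 1 cell line, and nothing in the labels says that the 3 libraries of a group were separate cultures, so p-values measure only the spread between these libraries, which may be technical. The titles of siPSCA 2 and siPSCA 3 give HCT117 and HCT118 as the line, whereas their other labels give HCT116. The labels list several PSCA siRNAs and do not say which was used.

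The targeted transcript was near the limit of detection. PSCA had 4, 12 and 15 reads in NC 1, 2 and 3, and 9, 9 and 7 reads in siPSCA 1, 2 and 3, so the groups overlapped (log2 fold change of siPSCA over NC -0.07, SE 0.12, adjusted p = 0.728 in limma over all 34391 genes with a read). The RNA values therefore do not check the label PSCA knockdown. The NC libraries held 16145977 to 16884838 reads on genes and the siPSCA libraries 16099716 to 17302219. Of 11 markers of colorectal epithelium, 8 reached the testing minimum, with a summed FPKM of 812 to 873 in NC and 864 to 892 in siPSCA, although CDX1 had no read. Of the 10 leukocyte markers only ITGAX reached it, with CD3E and CD68 at 0 reads and a summed FPKM of 1.31 to 1.73 in NC and 1.27 to 1.68 in siPSCA. Of the 7 fibroblast markers only COL1A1 did, with LUM and PDGFRA at 0 reads and sums of 3.43 to 5.68 in NC and 6.09 to 6.61 in siPSCA, and none of the 5 endothelial markers did (sums of 0.214 to 0.336 and 0.233 to 0.258). In bulk RNA such as this, a lower share of cells that express a gene and less of its RNA per cell cannot be told apart.

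Across all tested genes, the difference between siPSCA and NC moved with base composition. The log2 fold change and the GC content of a gene's longest transcript had a Spearman correlation of 0.664 over 13792 genes, which share the same 6 libraries. NC 3 stood apart from NC 1 and NC 2 along the same property (Spearman correlation of its deviation with GC content -0.56). Changes of the genes tested below are therefore also given after the trend with GC content and length was removed from every library, which left a correlation of -0.03, and those of the 9 genes also without NC 3.

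Promoter sequences were searched for the exact letters of the interferon element next to the start. RefSeq promoter windows, 250 bases before to 50 after a start on GRCh38.p14, were found for 7 of the 9 genes (9 windows, 3 of them of ADAR; DDX58 is listed there as RIGI). DHX58 and IRF3 had no entry. The letters of the ISRE, searched on both strands, were present in EIF2AK2, IFIH1 and TLR3, and in 3.57% of all 35116 windows. The 120 bases from 100 before to 20 after the start are shown for these 3 genes because they share the element, which is in capitals. EIF2AK2 lies on the minus strand (chr2:37156961-37157080), IFIH1 on the minus strand (chr2:162318665-162318784) and TLR3 on the plus strand (chr4:186069056-186069175).
EIF2AK2: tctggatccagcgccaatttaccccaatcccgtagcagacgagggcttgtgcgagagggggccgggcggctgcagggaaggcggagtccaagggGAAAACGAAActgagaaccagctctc
IFIH1: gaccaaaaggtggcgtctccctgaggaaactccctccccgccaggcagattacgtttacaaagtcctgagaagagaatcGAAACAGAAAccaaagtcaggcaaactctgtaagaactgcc
TLR3: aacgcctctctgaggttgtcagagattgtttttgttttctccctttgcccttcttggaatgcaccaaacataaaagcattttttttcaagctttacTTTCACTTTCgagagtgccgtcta
In EIF2AK2 the element began 6 bases before the start. In IFIH1 1 copy began 21 bases before it, and 2 further copies that overlap each other lay farther upstream, outside the stretch shown. In TLR3 it began 4 bases before the start and ran past it. There it lies on the opposite strand, so that it reads as its reverse complement here. The letters TTCNNNGAA, known as the interferon-gamma activated site, were present at 2 places in TLR3 and at 1 in ZC3HAV1, and in 7.66% of all windows. A match of letters is a description of the sequence and not a measured binding site. The lack of an exact match in these windows does not show that a gene lacks the element.

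The cells transcribed every one of the 9 genes, over a range of levels that reached from about 1 FPKM to over 70 FPKM. ADAR was the most abundant in both groups, with 35.4% to 36.4% of the summed FPKM of the 9 genes in the NC libraries and 38.4% to 38.9% in the siPSCA libraries. In NC the order by mean FPKM was ADAR, EIF2AK2, DDX58, MAVS, ZC3HAV1, IRF3, IFIH1, TLR3 and DHX58. The ranges of EIF2AK2 and DDX58, of IRF3 and IFIH1, and of TLR3 and DHX58 overlapped, and the other neighbours were apart. In siPSCA the order was ADAR, MAVS, DDX58, EIF2AK2, IRF3, ZC3HAV1, IFIH1, DHX58 and TLR3, and among neighbours only DDX58 and EIF2AK2 overlapped. The range of DDX58 (19.8 to 25.4 FPKM) also overlapped that of IRF3 (17.7 to 21.0 FPKM), which is not its neighbour. MAVS thus stood above DDX58 and EIF2AK2 in siPSCA and below them in NC.

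**Figure D1:**
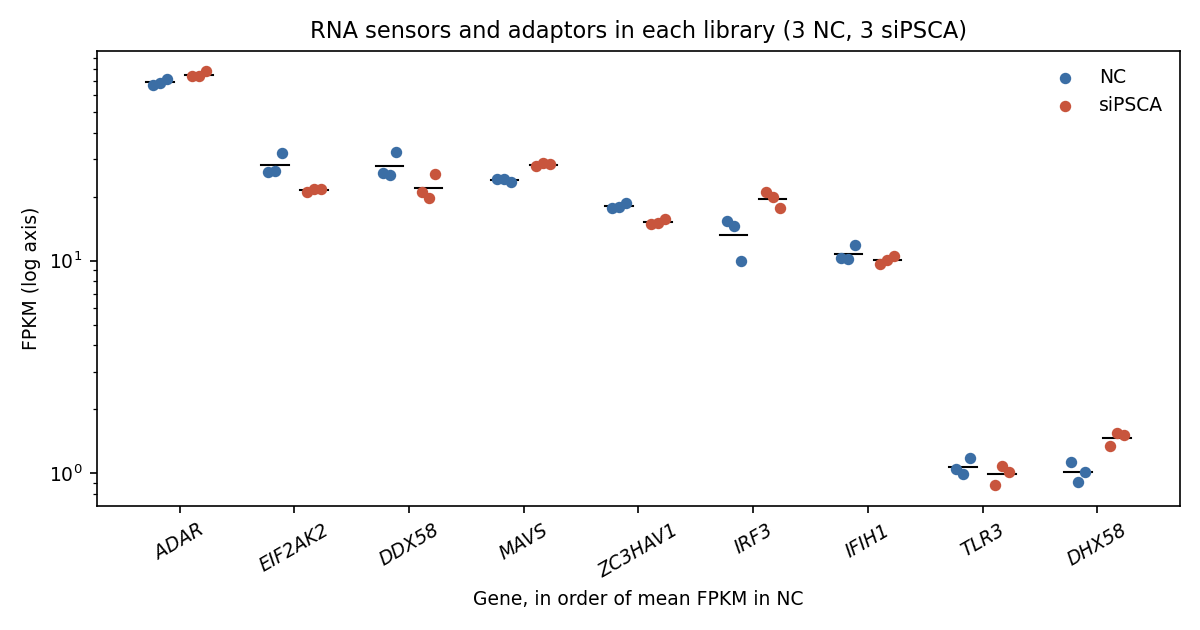
FPKM of the 9 RNA sensors and adaptors on a log axis, with 1 point per library (blue NC, red siPSCA, 3 each) and a black bar at each group mean. MAVS, ADAR, DHX58 and IRF3 have all siPSCA points above all NC points, EIF2AK2 and ZC3HAV1 have them all below, and DDX58, IFIH1 and TLR3 overlap.

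Differences between the groups were small and ran both ways. By limma on log2(FPKM + 1), with p-values adjusted over all 13796 tested genes, MAVS, IRF3 and DHX58 rose and EIF2AK2 and ZC3HAV1 fell, which is 5 of 9 (55.6%), where 50.7% of all tested genes passed the same threshold of 0.05 (26.6% higher and 24.2% lower). The share of the 9 genes that passed was thus near that of genes at large. Groups did not overlap for 6 of the 9 genes (4 higher in siPSCA and 2 lower), against 64.5% of all tested genes (33.7% higher and 30.8% lower). With an unadjusted p under 0.05 and an absolute log2 fold change over 0.5, IRF3 alone passed, against 24.9% of all tested genes. The ratio of the mean FPKM of siPSCA to that of NC was 1.47 for IRF3 and 1.45 for DHX58. The pseudocount of 1 understates the change of a gene as low as DHX58. The median absolute log2 fold change was 0.24 over the 9 genes and 0.30 over all tested genes, and the median signed change was -0.06 and 0.01. Permuting the FPKM values of a single gene exactly (2-sided) gave the smallest p that 3 libraries against 3 allow, 0.1, for the 6 genes without overlap, and p = 0.2, 0.4 and 0.5 for DDX58, IFIH1 and TLR3.

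The direction of each gene followed the side of the GC scale on which it lay. The 5 genes with an estimate below 0 have transcripts of 37.6% to 44.2% GC, and the 4 with an estimate above 0 have 49.3% to 59.0% GC, with a median of 48.1% over all tested genes. After removal of the GC and length trend, MAVS and ADAR were higher in siPSCA and no gene was lower, which is 2 of 9 against 39.5% of all tested genes (19.8% higher and 19.7% lower), and the same 2 genes passed when NC 3 was also left out, against 42.2% (21.6% higher and 20.6% lower). With the trend removed and all libraries kept, the median change of the 9 genes was 0.05, against 0.01 over all tested genes. When limma-voom was fitted to reads recovered from the FPKM, with no such removal, ADAR passed besides the 5 genes, which made 4 higher and 2 lower, against 53.6% (30.2% higher and 23.4% lower).

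**Figure D2:**
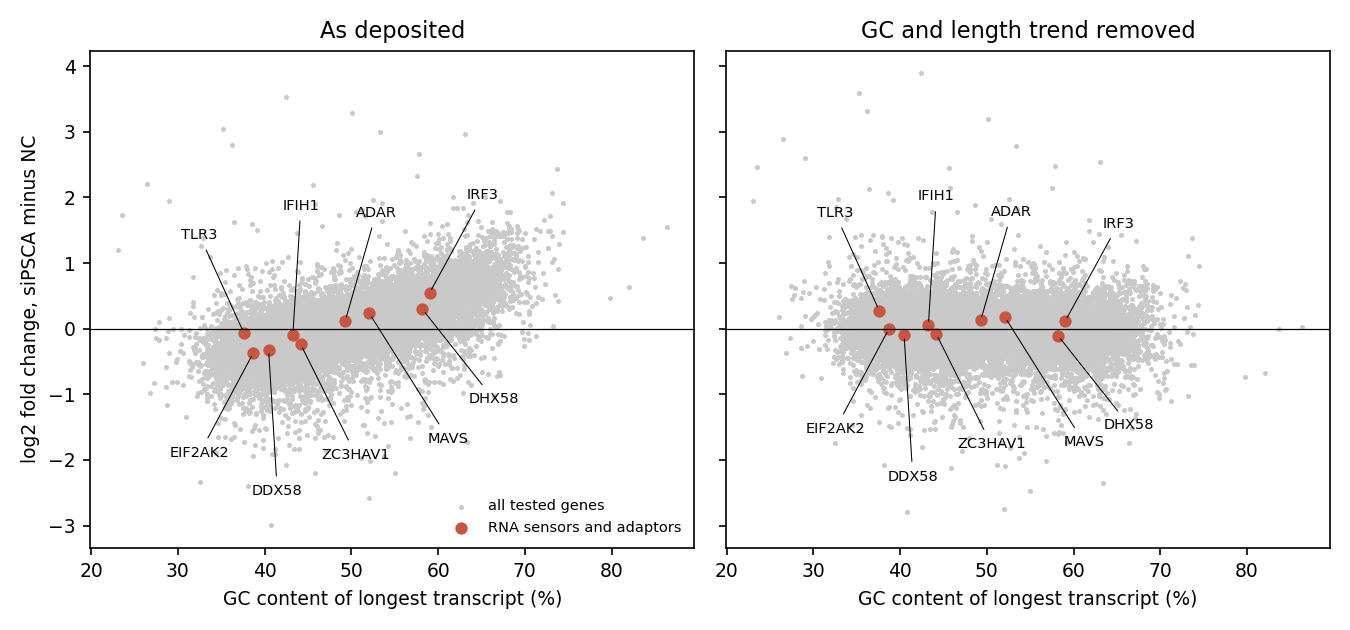
Log2 fold change (siPSCA minus NC, on log2(FPKM + 1)) of each tested gene against the GC content of its longest transcript in percent, as deposited (left) and after removal of the GC and length trend (right). The grey cloud slopes upward on the left (Spearman correlation 0.664) and is level on the right (-0.03), and the 9 named genes, in red, lie along the cloud in both panels.

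Among the RIG-I-like helicases, DDX58 (ENSG00000107201, chromosome 9, 32455705 to 32526324, minus strand) was the most abundant. Its FPKM was 25.9, 25.3 and 32.3 in NC 1, 2 and 3 and 21.0, 19.8 and 25.4 in siPSCA 1, 2 and 3. The groups overlapped, since siPSCA 3 lay above NC 2, and NC 3 and siPSCA 3 were the highest libraries of their groups. The means were 27.8 ± 3.89 and 22.1 ± 2.95 FPKM (SD, n = 3 each), which gave a log2 fold change of -0.32 with an SE of 0.13 and an adjusted p = 0.0776 in limma. The change was -0.10 after removal of the GC trend (adjusted p = 0.467) and -0.21 without NC 3 (adjusted p = 0.136), and it passed the threshold in 1 of the 6 fits that left out 1 library each (without siPSCA 3, adjusted p = 0.0437).

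IFIH1 (ENSG00000115267, chromosome 2, 162267079 to 162318703, minus strand) did not differ beyond the spread of its libraries. Its FPKM was 10.3, 10.2 and 11.9 in NC and 9.60, 10.1 and 10.5 in siPSCA, and the ranges overlapped. The log2 fold change was -0.09 (95% interval -0.27 to 0.09, adjusted p = 0.338 in limma), and it was 0.05 after removal of the GC trend (interval -0.07 to 0.17) and -0.02 without NC 3 (adjusted p = 0.706).

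DHX58 (ENSG00000108771, chromosome 17, 42101404 to 42112733, minus strand), which lacks the signalling domains of the other helicases, was low in these cells. Its FPKM was 1.13, 0.911 and 1.01 in NC, from 73, 61 and 67 reads, and 1.35, 1.55 and 1.51 in siPSCA, from 88, 106 and 106 reads. All siPSCA libraries lay above all NC libraries, and DHX58 rose from 1.02 ± 0.110 to 1.47 ± 0.105 FPKM (SD, n = 3 each; log2 fold change 0.29, SE 0.10, adjusted p = 0.0421 in limma). The ratio of its summed reads, scaled to the library totals, was 1.45 with an exact binomial 95% interval of 1.21 to 1.74, which covers counting error only. The call was lost in each of the 6 fits that left out 1 library (adjusted p from 0.0533 to 0.130), and after removal of the GC trend the estimate was -0.11 (adjusted p = 0.505), against 0.29 without NC 3 (adjusted p = 0.0706). With no such removal it was 0.50 with a pseudocount of 0.1 and 0.56 with limma-voom. The trend was fitted over genes of all levels, whereas a pseudocount of 1 understates changes of low genes. Whether the removal suits a gene near 1 FPKM was not tested, so the turn in sign is uncertain.

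TLR3 (ENSG00000164342, chromosome 4, 186069152 to 186088069, plus strand), the endosomal receptor, was near 1 FPKM in both groups. Its FPKM was 1.05, 0.999 and 1.18 in NC and 0.879, 1.08 and 1.01 in siPSCA, from 373 reads in all in NC and 353 in siPSCA. The ranges overlapped, with a log2 fold change of -0.06 (95% interval -0.31 to 0.18, adjusted p = 0.628 in limma). TLR3 has the lowest GC content of the 9 genes, and after removal of the GC trend its estimate was 0.27 (interval 0.04 to 0.51, adjusted p = 0.0663), and without NC 3 it was -0.03 (adjusted p = 0.863). The limit of the removal near 1 FPKM, given for DHX58, holds for TLR3 as well. TLR3 and IFIH1 were each other's most similar gene among the 147 tested genes of the 9 and of the pathway lists below: the root mean square distance between their log2(FPKM + 1) values, centred over the 6 libraries, was 0.046.

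The adaptor of the helicases, MAVS (ENSG00000088888, chromosome 20, 3846799 to 3876123, plus strand), gave the steadiest difference. Its FPKM was 24.2, 24.1 and 23.5 in NC and 27.7, 28.7 and 28.4 in siPSCA, with no overlap and little spread inside either group. MAVS rose from 23.9 ± 0.414 to 28.3 ± 0.503 FPKM (SD, n = 3 each), or by 18.1% of the NC mean (log2 fold change 0.23, SE 0.04, adjusted p = 0.00680 in limma). The change remained past the threshold in all 6 fits that left out 1 library (0.22 to 0.25, with 0.22 and an adjusted p = 0.00329 without NC 3). It also passed with the GC trend removed (0.18, adjusted p = 0.00761). The gene most like it across libraries was EIF2B4 (distance 0.044), a subunit of the exchange factor of eIF2.

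IRF3 (ENSG00000126456, chromosome 19, 49659569 to 49665875, minus strand), the transcription factor at the end of both routes, had the largest log2 fold change of the 9 genes as deposited. Its FPKM was 15.3, 14.5 and 9.96 in NC 1, 2 and 3 and 21.0, 19.9 and 17.7 in siPSCA 1, 2 and 3. All siPSCA libraries lay above all NC libraries, and NC 3 lay well below the other NC libraries, at 0.668 of their mean. IRF3 rose from 13.3 ± 2.89 to 19.5 ± 1.67 FPKM (SD, n = 3 each; log2 fold change 0.54, SE 0.16, adjusted p = 0.0305 in limma). Without NC 3 the change was 0.36 (adjusted p = 0.00960), and without any single siPSCA library it did not pass (adjusted p from 0.0506 to 0.0987). After removal of the GC trend it was 0.11 (adjusted p = 0.350).

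The exons of IRF3 share 734 bases (19.3% of their length) with those of BCL2L12 on the opposite strand, and no source used here says whether counting used the strand. Reads of the 2 genes can therefore not be told apart there. BCL2L12, a gene of the BCL2 family, had 10.7, 11.1 and 5.32 FPKM in NC and 18.2, 19.3 and 17.5 in siPSCA, so NC 3 was the lowest library for both genes (log2 fold change of BCL2L12 1.00, adjusted p = 0.0174 in limma, or 0.58 with the GC trend removed, adjusted p = 0.0404). BCL2L12 did not pass without siPSCA 1 or siPSCA 2 (adjusted p = 0.0566 and 0.0581). How far these reads bear on the value of IRF3 was not tested. The gene most like IRF3 was TKFC (distance 0.076), whose product is known to restrain MDA5.

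Of the effectors, EIF2AK2 (ENSG00000055332, chromosome 2, 37099210 to 37157065, minus strand) was lower after siPSCA. Its FPKM was 26.1, 26.3 and 32.0 in NC 1, 2 and 3 and 21.1, 21.8 and 21.6 in siPSCA. The groups did not overlap, and NC 3 was high, at 1.22 times the mean of NC 1 and NC 2. EIF2AK2 fell from 28.1 ± 3.33 to 21.5 ± 0.357 FPKM (SD, n = 3 each; log2 fold change -0.37, SE 0.08, adjusted p = 0.0141 in limma), and without NC 3 it fell by 0.27 on the log2 scale (adjusted p = 0.00155), whereas without siPSCA 1 it no longer passed (-0.35, adjusted p = 0.0535). After removal of the GC trend the estimate was -0.0012 (95% interval -0.13 to 0.13, adjusted p = 0.989). It shares 35 exon bases with GPATCH11 and 401 with the pseudogene AC007899.1, both on the opposite strand (0.325% and 3.73% of its exon length). STAU1, which encodes another protein that binds double-stranded RNA, was the gene most like it (distance 0.020) and also fell (log2 fold change -0.34, adjusted p = 0.0126, and -0.33 after removal of the GC trend).

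ADAR (ENSG00000160710, chromosome 1, 154582057 to 154628013, minus strand) lay above all NC libraries in each siPSCA library, but by a margin that did not pass the test as deposited. Its FPKM was 66.8, 68.6 and 71.6 in NC and 73.7, 73.7 and 77.5 in siPSCA, and the gap between NC 3 and the lowest siPSCA library was small. The means were 69.0 ± 2.42 and 75.0 ± 2.20 FPKM (SD, n = 3 each), with a log2 fold change of 0.12, an SE of 0.05 and an adjusted p = 0.0852 in limma. The same estimate was 0.13 after removal of the GC trend (adjusted p = 0.0324) and 0.14 without NC 3 (adjusted p = 0.0202), both past the threshold. The gene most like ADAR was CASP8 (distance 0.030).

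ZC3HAV1 (ENSG00000105939, chromosome 7, 139043520 to 139109719, minus strand) was lower after siPSCA. Its FPKM was 17.7, 17.9 and 18.8 in NC and 14.8, 15.1 and 15.7 in siPSCA, with no overlap. ZC3HAV1 fell from 18.2 ± 0.543 to 15.2 ± 0.467 FPKM (SD, n = 3 each; log2 fold change -0.24, SE 0.05, adjusted p = 0.00952 in limma), and it passed in all 6 fits that left out 1 library (-0.22 and an adjusted p = 0.00668 without NC 3). After removal of the GC trend the estimate was -0.08 (adjusted p = 0.110). The genes most like ZC3HAV1, DDX58 and DHX58 were SUPV3L1, NCK1 and MAVS (distances 0.048, 0.077 and 0.059).

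**Figure D3:**
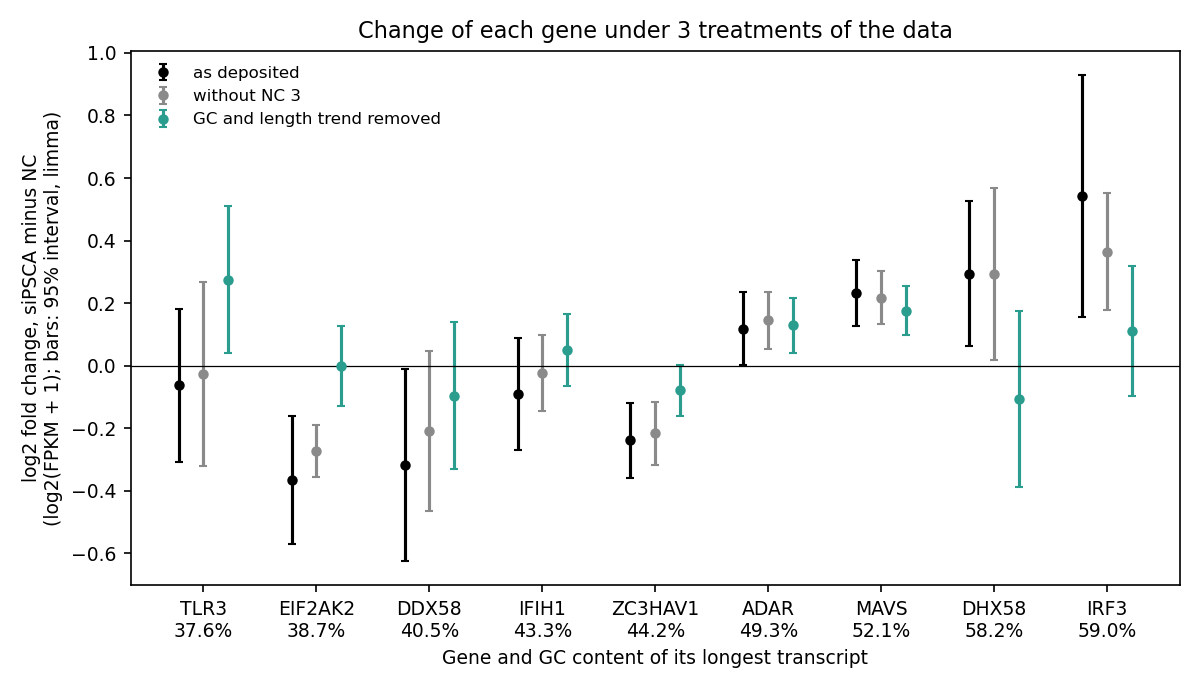
Log2 fold change of each of the 9 genes (siPSCA minus NC, on log2(FPKM + 1), limma) with its 95% interval, as deposited (black), without NC 3 (grey) and after removal of the GC and length trend (green), ordered by the GC content printed under each name. MAVS and ADAR keep intervals above 0 in all 3 treatments, whereas the intervals of EIF2AK2, ZC3HAV1, DHX58 and IRF3 reach across 0 once the trend is removed.

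Ratios between members, which share their libraries, were chosen after the values had been seen and are given with no test. The FPKM of MAVS over that of DDX58 and IFIH1 together was 0.671, 0.680 and 0.531 in NC and 0.906, 0.960 and 0.791 in siPSCA. The FPKM of ADAR over that of EIF2AK2 was 2.56, 2.61 and 2.24 in NC and 3.49, 3.39 and 3.58 in siPSCA. That of DHX58 over IFIH1 was 0.110, 0.0896 and 0.0850 in NC and 0.141, 0.154 and 0.145 in siPSCA. All 3 ratios were higher in every siPSCA library than in any NC library, and in each the gene above the line has the higher GC content.

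The genes that act next to the sensors moved in both directions. Of 29 genes of sensor signalling, all tested, 10 rose and 9 fell, with a median log2 fold change of 0.12, and 4 and 6 did so after removal of the GC trend, with a median of 0.03. These are 65.5% and 34.5% of the list, against 50.7% and 39.5% of all tested genes. FADD, a death-domain adaptor that also works downstream of MAVS, rose from 3.23 to 7.76 FPKM (log2 fold change 1.09, adjusted p = 0.00627, and 0.69 after removal of the GC trend). TICAM1, the adaptor of TLR3, rose from 7.15 to 13.6 FPKM (0.89, adjusted p = 0.0184, and 0.28 with adjusted p = 0.123 after removal of the GC trend), and it did not pass without siPSCA 1 or siPSCA 3 (adjusted p = 0.0609 and 0.0576). The kinase MAP3K7 and its partner TAB2, which pass the signal on to NF-kB, fell (-0.63 and -0.58, adjusted p = 0.00124 and 0.000762, and both -0.31 after removal of the GC trend). TRIM25 and RNF135, the ubiquitin ligases that activate RIG-I, gave 0.09 and 0.26 (adjusted p = 0.166 and 0.128), or 0.04 and 0.03 with the GC trend removed. Without NC 3, TRIM25 passed (0.12, adjusted p = 0.0347) and RNF135 gave 0.12 (adjusted p = 0.172).

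The 2 kinases of IRF3 differed in direction. TBK1 fell, with 13.6, 15.3 and 17.3 FPKM in NC and 12.6, 12.6 and 12.1 in siPSCA (log2 fold change -0.29, adjusted p = 0.0344 in limma). IKBKE rose, with 1.84, 1.85 and 1.76 FPKM in NC and 2.65, 3.34 and 3.45 in siPSCA (0.55, adjusted p = 0.00519). After removal of the GC trend neither passed, at -0.02 and 0.13 (adjusted p = 0.805 and 0.403). TBK1 also did not pass without NC 2 or without any 1 of the siPSCA libraries (adjusted p from 0.0816 to 0.0980).

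Inhibitors of the pathway also moved both ways. Of 22 such genes, all tested, 5 rose and 9 fell, with a median of -0.14, and 4 and 7 did so after removal of the GC trend, with a median of -0.08. Among all tested genes 26.6% rose and 24.2% fell, and 19.8% and 19.7% did so after removal. SIKE1, a suppressor of IKBKE and TBK1, fell from 16.8 ± 0.677 to 7.71 ± 0.189 FPKM (SD, n = 3 each; log2 fold change -1.03, adjusted p = 0.000206 in limma, or -0.68 with the GC trend removed). SMURF2, a ubiquitin ligase, fell from 37.8 to 21.1 FPKM (-0.82, and -0.52 after removal of the GC trend). NLRX1, a mitochondrial protein that binds MAVS, rose from 3.23 to 6.37 FPKM (0.81), but its change after removal of the GC trend was 0.24 with an adjusted p = 0.0504.

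The counts of other RNA-binding sensors and effectors, a list that also holds factors of the cell's own RNA, changed with the GC treatment. Of 36 such genes 31 were tested, of which 9 rose and 11 fell with a median of -0.11, whereas 11 rose and 5 fell after removal of the GC trend with a median of 0.05. These are 64.5% and 51.6% of the tested list, against 50.7% and 39.5% of all tested genes. The 20 calls were 11 without NC 2 and 10, 12 and 12 without siPSCA 1, 2 and 3. TLR7 and TLR8, the endosomal receptors of single-stranded RNA, had no read in any library. OAS1, which makes the activator of RNase L, rose from 4.66 to 7.92 FPKM (log2 fold change 0.66, adjusted p = 0.00138 in limma, or 0.64 with the GC trend removed). TARBP2 and PRKRA, which encode the related partners TRBP and PACT that inhibit and activate PKR, moved apart: TARBP2 rose (1.06, and 0.55 after removal) and PRKRA fell (-0.45, and -0.15 after removal, adjusted p = 0.0163). XRN1, the main exonuclease that degrades RNA from its 5′ end, fell from 7.41 to 4.10 FPKM (-0.72, and -0.31 after removal).

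Of the genes that control eIF2, the target of PKR, 3 of 17 rose and 7 fell, with a median of -0.12, and 1 and 8 did so after removal of the GC trend, with a median of -0.13. These are 58.8% and 52.9% of the list, against 50.7% and 39.5% of all tested genes. The 10 calls were 6 without siPSCA 1 and 5 without siPSCA 2. EIF2S1, the subunit that PKR phosphorylates, gave -0.12 (adjusted p = 0.314), but 0.15 after removal of the GC trend (adjusted p = 0.111) and -0.02 without NC 3 (adjusted p = 0.722). DNAJC3, which encodes the PKR inhibitor P58IPK, fell from 35.2 ± 0.725 to 17.1 ± 0.361 FPKM (SD, n = 3 each; log2 fold change -0.99, adjusted p = 0.000142 in limma, and -0.74 after removal). DDIT3, the stress factor CHOP downstream of phosphorylated eIF2, fell from 9.11 to 4.85 FPKM (-0.80, and -0.84 after removal). PPP1R15A, a phosphatase subunit that reverses the phosphorylation, and EIF2B4 rose by 0.29 and 0.21 and did not pass after removal (adjusted p = 0.438 and 0.175). Each also lost its call in 4 of the 6 fits that left out 1 library: PPP1R15A without NC 1, NC 2, siPSCA 1 or siPSCA 2 (adjusted p from 0.0679 to 0.0894), and EIF2B4 without NC 1 or any 1 siPSCA library (0.0695 to 0.105). The other kinases of eIF2, named after their values had been seen, were EIF2AK1 (-0.27, adjusted p = 0.0220, lost without NC 2 or any 1 siPSCA library, at 0.0521 to 0.0707), EIF2AK3 (-0.57, adjusted p = 0.00136) and EIF2AK4 (0.01, adjusted p = 0.895). After removal of the GC trend they gave -0.24, -0.46 and 0.11 (adjusted p = 0.0140, 0.00130 and 0.131).

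The interferon transcripts that the pathway produces were present at a few reads. IFNB1 had 1, 1 and 0 reads in NC and 4, 3 and 5 in siPSCA, a ratio per library total of 5.83 with an exact binomial 95% interval of 1.30 to 53.7 and an adjusted p = 0.0257 in limma over all genes with a read. IFNL1 had 2, 6 and 0 reads in NC and 26, 9 and 18 in siPSCA, a ratio of 6.44 (3.04 to 15.7, adjusted p = 0.0666 in limma over the same genes). IFNL2 and IFNL3, named after their values had been seen, had 2, 3 and 1 and 1, 5 and 0 reads in NC and 8, 16 and 12 and 11, 11 and 11 in siPSCA. The reads of IFNL2 and IFNL3 are uncertain, because these genes are near-identical copies. In each of the 4 genes every siPSCA library lay above every NC library, and these intervals cover counting error only. The same held for 33.7% of all tested genes, and no such share was taken over genes with so few reads. Fits that left out 1 library were made over the tested genes alone and hold none of the 4. Of the other interferons in the list, IFNG had no read and IFNE, given below, fell. IFNA1, IFNA2 and IFNK are not reported here.

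A list of 23 genes held the interferons, their receptors and the signalling behind the receptors. Of these 13 were tested, of which 4 rose and 4 fell, with a median of -0.05, and 3 and 4 did so after removal of the GC trend. These are 61.5% and 53.8% of the tested list, against 50.7% and 39.5% of all tested genes. SOCS1, a feedback inhibitor of the receptors, rose from 3.56 to 11.9 FPKM (1.56, 0.67 after removal and 1.25 without NC 3), with NC 3 (1.87 FPKM) far below NC 1 and NC 2 (4.41 each). TYK2, a kinase of the receptor, rose (0.74, and 0.25 after removal), and IFNE, an interferon of epithelia, fell (-0.73, and -0.36 with adjusted p = 0.114 after removal).

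Among transcripts that interferon is known to induce, rises outnumbered falls. Of 34 such genes 23 were tested, of which 15 rose and 2 fell with a median of 0.38, and 13 rose and 1 fell after removal of the GC trend with a median of 0.32, against 0.01 over all tested genes. Among all tested genes 26.6% rose and 24.2% fell, and 19.8% and 19.7% did so after removal. IFI27 rose from 4.99 to 19.4 FPKM (log2 fold change 1.77, and 1.66 after removal) and IFI6 from 100.1 to 280.4 FPKM (1.48, and 1.25 after removal). ISG20 fell (-0.38, and -0.52 after removal), and SP100 fell by 0.16 on the log2 scale with an estimate of 0.10 after removal (adjusted p = 0.136) and no call in any fit that left out 1 library (adjusted p from 0.0504 to 0.132). Among 11 genes of cytosolic DNA sensing, 4 were tested: TMEM173, which encodes the adaptor STING, and SAMHD1 rose by 0.31 and 0.21, ENPP1 fell by 0.32 on the log2 scale, and after removal SAMHD1 alone passed (0.40, adjusted p = 0.00284). These are 75% and 25% of the 4 tested genes, against 50.7% and 39.5% of all tested genes. As deposited, SAMHD1 passed only without NC 3 among the fits that left out 1 library (others 0.0966 to 0.132), and ENPP1 only without NC 3 or siPSCA 3 (others 0.0539 to 0.0814). The 3 calls were then 1 without NC 1, NC 2, siPSCA 1 or siPSCA 2.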

How the data were processed

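RNA of 6 libraries was analysed, 3 NC and 3 siPSCA, grouped by their labels. FPKM values of 58735 genes and their lengths stand in the single table that the authors deposited. Its gene positions were those of GENCODE 29 on GRCh38, the build in the submitters' processing notes. Libraries were made with the NEBNext Ultra RNA kit. The aligner, counting program and strand setting are not given in the sources used here. FPKM multiplied by length gave whole reads for 100% of values (tolerance 0.02), and the totals were 16803235 to 18218661.

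The linear model of limma 3.58.1 (R 4.3.3; lmFit, eBayes with trend) was fitted to log2(FPKM + 1) with group as the only term, over 13796 genes (mean FPKM 1 or more), and p-values were adjusted by Benjamini and Hochberg. A pseudocount of 1 understates changes of low genes. PSCA, IFNB1 and the lambda interferons were below this minimum, and their values come from the model refitted over 34391 genes. The GC and length trend was removed by loess (span 0.3) of each library's deviation from the mean over libraries, fitted over tested genes of all levels. The script was tested on simulated data. Python 3.11.15, scipy 1.17.1 and matplotlib 3.10.9 were used.

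The 9 genes, the lists and the tests were chosen with earlier results of these data known. Besides the 9 genes and PSCA, the text names the 2 largest rises and 2 largest falls of each list among genes past the threshold whose groups did not overlap, fixed partners and products (TRIM25, RNF135, TICAM1, TBK1, IKBKE, IFNB1, IFNL1, EIF2S1) and the list gene most like each of the 9. Some genes that this rule names are not reported here. MARCH5 and MB21D1 were matched by Ensembl identifier, since the table carries other symbols. Alternatives were a pseudocount of 0.1, no minimum or a minimum of 5 FPKM, TPM, removal of the GC trend, each library left out, a replicate block and limma-voom on the recovered reads.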

Additional observations from a re-analysis of the deposited data

How the results depend on the processing

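MAVS kept its direction and stayed past the threshold in every alternative fit, and the counts of sensor inhibitors and of interferon-induced transcripts stayed within 1.5 times under all of theirs. Of the 9 genes, 5 passed, and this count was 2 after removal of the GC trend, also with NC 3 left out, 3 with no FPKM minimum, 1 with a replicate block and the GC trend removed, 1 under the rule of unadjusted p and fold (IRF3), and 2 to 5 with 1 library left out (2 without siPSCA 1, 3 without siPSCA 2).

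With the GC trend removed, with NC 3 also left out, and with a replicate block besides, the log2 fold changes were 0.050, 0.083 and 0.050 for IFIH1, -0.11, -0.030 and -0.11 for DHX58, 0.27 in all of them for TLR3 (each turned in sign), -0.0012, 0.050 (turned in sign) and -0.0012 for EIF2AK2, -0.079, -0.090 and -0.079 for ZC3HAV1 and 0.11, 0.019 and 0.11 for IRF3, with no call. ADAR passed at 0.13 and 0.14 in the first and second of these and at 0.15 with limma-voom. DHX58 lost its call with TPM (0.40), no minimum (0.29), a pseudocount of 0.1 (0.50) and the replicate block (0.29), and IRF3 with no minimum (0.54). DDX58 passed with the replicate block (-0.32, adjusted p = 0.00981 in limma).

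With 1 library left out, changes ranged from -0.42 to -0.21 for DDX58, 0.26 to 0.33 for DHX58, -0.41 to -0.27 for EIF2AK2 (lost without siPSCA 1), 0.094 to 0.14 for ADAR and 0.36 to 0.65 for IRF3. Counts of called genes ranged from 10 to 22 (20 in all libraries) for other RNA-binding proteins, 5 to 11 (10) for eIF2 control, 1 to 3 (3) for DNA sensing and 4627 to 7425 (7001) for all tested genes, with the lowest without siPSCA 1 except that eIF2 control was lowest without siPSCA 2.

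Sensor signalling gave 10, 11 and 9 calls under the 3 treatments with the GC trend removed and 12 at a minimum FPKM of 5, against 19. DNA sensing gave 1 under the same 3 and with no minimum. At a minimum of 5 the interferon and receptor genes gave 5 calls against 8. With no minimum, other RNA-binding proteins gave 13 and eIF2 control 6. All tested genes gave 4617 with the block and the GC trend removed and 3434 under the rule of p and fold.

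Replicate numbers are shared between groups, but same-numbered libraries did not deviate together in every pair (correlation 0.096, 0.013 and 0.13), and NC 2 correlated best with siPSCA 1, so the numbers were not taken as pairs. The edgeR and DESeq2 fits that had been planned were not run, because the deposited values are FPKM, and limma-voom on the recovered reads, chosen after seeing the data, took their place. The fit with the GC trend removed and NC 3 left out was also chosen after seeing the data. DHX58 and TLR3 give no value at a minimum of 5 FPKM. The cause of these differences was not tested. With 61 to 106 reads per library, DHX58 is limited by counting. Whether removal of the GC trend suits genes as low as DHX58 and TLR3 was not tested, so their turns in sign are uncertain.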
